A study of Mus musculus with 32 samples.

Results

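Ndrg2 (N-myc downstream regulated 2) was measured on a cDNA array in mouse prefrontal cortex after chronic exposure to ethanol vapor. It was chosen by a rule on probe titles: a title that contains "N-myc downstream regulated" and does not open with EST, the mark of an unnamed expressed sequence tag. The rule found 1 probe among the 5163 cDNA probes of the array, which is titled N-myc downstream regulated 2. RefSeq lists 4 genes of the family in the mouse, Ndrg1 to Ndrg4. No other probe of its sequence cluster was on the array, and no probe carried an accession that RefSeq lists as a synonym of a family gene. The family is therefore described here through Ndrg2 alone. Ndrg2 had been singled out because its level was lower with ethanol on most arrays, so its ethanol values are given as a description with no test. Tests were kept for line, sex, selection replicate and the differences in response between them. The differences in response are built from the same ethanol values, so their p-values are no independent test.

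The Ndrg proteins have the fold of alpha/beta hydrolases but are held to lack enzymatic activity. The family was named after Ndrg1, whose transcription is repressed by the transcription factor N-myc. In the brain Ndrg2 is made mainly by astrocytes, its transcript responds to glucocorticoids in that cell type, and the protein is studied in stress responses, in cell growth and as a candidate tumour suppressor.

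The mice came from lines bred in opposite directions, out of the genetically mixed HS/Ibg stock, for the severity of convulsions on ethanol withdrawal. WSP lines (Withdrawal-Seizure Prone) were bred for severe and WSR lines (Withdrawal-Seizure Resistant) for mild convulsions, each in 2 separately bred replicate lines, so an allele fixed by chance in 1 line cannot be told apart from a selected one by a single line. Adult, drug-naive males and females of generation 26 spent 72 h in ethanol vapor (EtOH) or in air (Air), and cortex was taken as exposure ended, at 0 h of withdrawal. Every mouse, Air controls included, received pyrazole, an inhibitor of alcohol dehydrogenase, at 68.1 mg/kg. EtOH mice also had an ethanol injection on the first day, which was 1.5 g/kg for WSP-1 and for both WSR lines and a higher dose for WSP-2. The dose thus differs between the WSP replicate lines. Each array carried radiolabelled cDNA from the pooled RNA of 2 animals, 2.5 µg from each. There were 8 groups of sex, line and treatment with 4 arrays each. The name of an array gives its selection replicate and then its pool: 1-2 stands for selection replicate 1, pool 2. The array female WSR EtOH 2-1 was marked as excluded by the submitters, which left 31 arrays. In whole tissue, fewer cells of a type and less RNA per cell cannot be told apart.

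Each array has 1 intensity per spot (Signal) and 1 background reading for the whole array. That reading moved with the sex labels. It was 8.25 to 41.1 on the 16 male arrays and 430 to 769 on the 7 female WSR arrays. On the female WSP arrays it was 88.4 to 283 in pool 1 and 10.3 to 66.8 in pool 2. The share of cDNA spots above background was 40.9 to 71.7% on male arrays, 17.3 to 36.2% on female WSR arrays, 15.8 to 49.3% in female WSP pool 1 and 66.8 to 82.5% in female WSP pool 2. The low-background and high-background arrays named below lie under and over a reading of 80. The labelled tissue could be checked against few markers. Glul, the glutamine synthetase of astrocytes, was above background on 31 of 31 arrays, and Syn1, a synaptic vesicle protein of neurons, on 12.

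Ndrg2 was a dim spot. Its Signal was above the background reading on 26 of the 31 arrays, and on all 16 male arrays. The 5 arrays at or below background were female: WSP EtOH 1-1 and 2-1, WSR Air 1-1, and WSR EtOH 1-1 and 1-2. Each group had at least 1 array above background, so no group is given as a bound. In the female EtOH groups, though, Ndrg2 was above background on only 2 of 4 WSP arrays and 1 of 3 WSR arrays, and their folds below rest partly on readings at or under background.

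In Air, the ratio of Ndrg2 Signal to the background reading in female WSP was 1.58 on array 1-1, 1.39 on 1-2, 1.73 on 2-1 and 1.79 on 2-2. In female WSP EtOH it was 0.897, 1.58, 0.565 and 1.81 in the same order. Both EtOH arrays of pool 1 lay below every Air array, and both of pool 2 lay within or above the Air range. In female WSR Air the ratio was 0.993, 1.10, 1.45 and 1.89. In female WSR EtOH it was 0.688 on array 1-1, 0.573 on 1-2 and 1.28 on 2-2. The excluded array 2-1 of that group had a ratio of 2.35, above all 7 female WSR arrays that were used.

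In male WSP Air the ratio to background was 2.73, 3.56, 1.61 and 2.45, the brightest group of the study on this scale. In male WSP EtOH it was 2.12, 1.14, 1.74 and 1.20, so that 1-2 and 2-2 lay below all 4 Air arrays and the other 2 within their range. In male WSR Air it was 2.69, 1.53, 1.07 and 1.61. In male WSR EtOH it was 1.87, 1.93, 1.43 and 1.84, inside the Air range on every array.

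To compare arrays, background was corrected with limma's normexp, which models each array's intensities as background plus signal, and the log2 levels come from arrays brought to a common distribution by quantile normalisation. On this scale Ndrg2 was lower in EtOH than in Air by 0.96 in female WSP (SE 0.39), by 0.87 in female WSR (SE 0.42) and by 0.71 in male WSP (SE 0.39). These are 1.95-fold, 1.83-fold and 1.64-fold lower levels. In male WSR the difference was 0.05 (SE 0.39). The mean of the 4 differences was -0.63 (SE 0.20), a 1.54-fold lower level. The mean was -0.39 (SE 0.12) without background correction, -0.29 (SE 0.12) on the ratio to surrounding spots described below, and -0.08 (SE 0.16) on low-background arrays alone, which hold no female WSR array. These are the values that chose the probe, so nothing is read from them. For scale, the same limma fit with Benjamini-Hochberg adjustment over the 3872 probes tested called 0 probes (0%) at an adjusted p under 0.05 in the mean EtOH contrast, where 210 had an unadjusted p under 0.05. It called 0.155% of probes in female WSR, and 0% in female WSP, male WSP and male WSR, where 148, 36 and 34 probes had an unadjusted p under 0.05.

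The normalised log2 level in female WSP Air was 8.11, 6.56, 7.54 and 6.54 on arrays 1-1, 1-2, 2-1 and 2-2, a mean of 7.19 ± 0.77 (SD, n = 4). In female WSP EtOH it was 5.53, 6.79, 5.43 and 7.15, a mean of 6.22 ± 0.87 (SD, n = 4). The 2 pools went opposite ways. Within the high-background arrays of pool 1 the EtOH level was lower by 2.34 (SE 0.59), and within the low-background arrays of pool 2 it was higher by 0.42 (SE 0.34). With limma's array weights, which give erratic arrays less influence, the female WSP difference was -0.0003 (SE 0.31).

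Female WSR Air arrays stood at 6.76, 6.93, 7.45 and 7.73, a mean of 7.22 ± 0.45 (SD, n = 4). Female WSR EtOH arrays stood at 6.39, 5.64 and 6.99, a mean of 6.34 ± 0.68 (SD, n = 3). Each EtOH array was below both Air arrays of its own selection replicate, and the groups overlapped through EtOH 2-2, which lay above both Air arrays of selection replicate 1. When all 32 arrays were normalised together, the excluded array had a level of 8.50 and the female WSR difference was -0.33 (SE 0.45). Without EtOH 1-2 the difference was -0.53.

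Male WSP Air arrays lay close together at 7.59, 7.76, 7.36 and 7.47, a mean of 7.55 ± 0.17 (SD, n = 4). Male WSP EtOH arrays stood at 7.36, 6.62, 6.91 and 6.44, a mean of 6.83 ± 0.40 (SD, n = 4). As in female WSR, each EtOH array was below both Air arrays of its selection replicate. Male WSR Air arrays stood at 7.53, 6.90, 6.37 and 7.08, a mean of 6.97 ± 0.48 (SD, n = 4), and EtOH arrays at 6.97, 7.14, 6.63 and 7.33, a mean of 7.02 ± 0.30 (SD, n = 4). The male WSR EtOH arrays all lay inside the Air range.

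**Figure D1:**
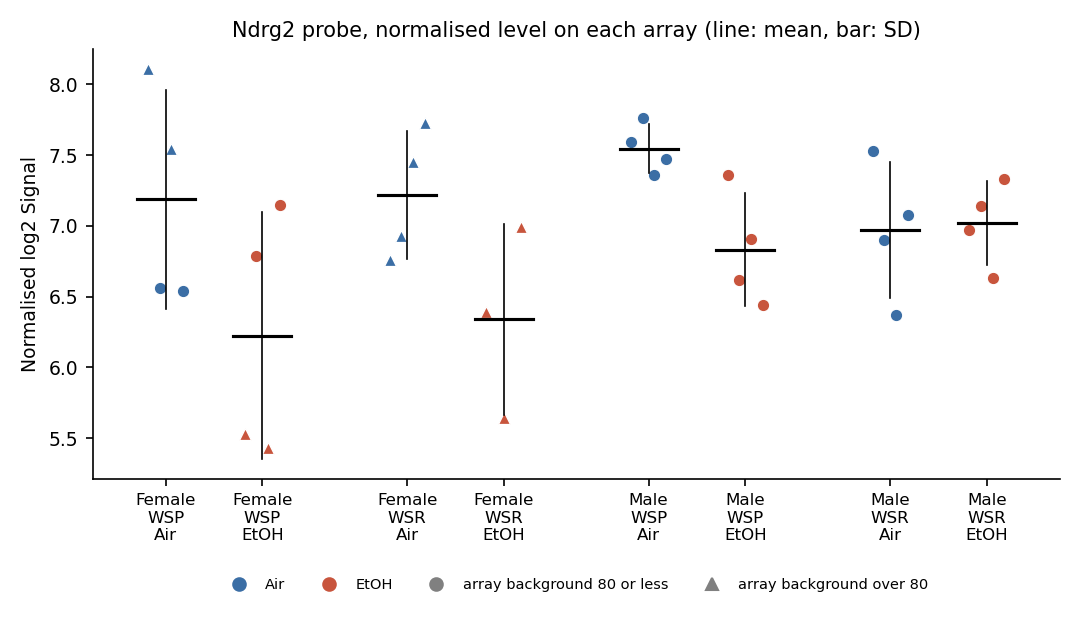
Normalised log2 Signal of the Ndrg2 probe on each of 31 arrays (points), by sex, line and treatment, with the group mean (line) and SD (bar); triangles are arrays with a background reading over 80. In female WSP the 2 low EtOH points, at 5.53 and 5.43, are both high-background arrays, and the 4 male WSP Air points lie between 7.36 and 7.76.

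Counted over arrays, 12 of the 15 EtOH arrays were below the Air mean of their own sex and line: 4 of 4 in female WSP, 3 of 3 in female WSR, 4 of 4 in male WSP and 1 of 4 in male WSR. Of the 15, 7 were below every Air array of their group. Both counts describe the fall for which the probe was chosen, so nothing is read from them. The EtOH and Air ranges overlapped in each of the 4 combinations of sex and line. From the highest to the lowest mean level, the order of the groups was male WSP Air, female WSR Air, female WSP Air, male WSR EtOH, male WSR Air, male WSP EtOH, female WSR EtOH and female WSP EtOH. Each step between neighbours in that order was smaller than the larger of their 2 SDs.

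Since there is 1 background reading for a whole array, the Ndrg2 spot was also set against the 48 spots up to 3 positions away in its grid, as the ratio of its Signal to their median. This scale was chosen after the data were seen. In female WSP Air the ratio to the surrounding spots was 1.15, 1.26, 1.30 and 1.50, and in female WSP EtOH 1.16, 0.978, 1.15 and 1.08. The EtOH spots were barely brighter than their surroundings, and the arrays of pool 1, which differed most on the normalised scale, had nearly equal ratios in EtOH and Air at selection replicate 1. In female WSR Air the ratio was 0.984, 1.06, 1.88 and 1.90, and in EtOH 1.16, 1.14 and 1.54. Here the selection replicates stood apart in both treatments, and the EtOH arrays lay within the Air range.

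In male WSP Air the ratio to the surrounding spots was 2.68, 2.95, 1.48 and 2.58, and in male WSP EtOH 2.19, 1.09, 1.20 and 1.27. The EtOH arrays 1-2, 2-1 and 2-2 lay below every Air array. In male WSR Air it was 2.13, 1.55, 1.12 and 1.57, and in male WSR EtOH 1.73, 1.35, 1.45 and 1.66, inside the Air range. The log2 difference between EtOH and Air on this scale was -0.25 (SE 0.24) in female WSP, -0.14 (SE 0.26) in female WSR, -0.76 (SE 0.24) in male WSP and -0.01 (SE 0.24) in male WSR. Against the normalised scale, the female differences were much smaller, while that of male WSP was about the same. High-background arrays had a narrower spread of this ratio over all tested probes: its interquartile range had a median of 0.31 on the 11 high-background arrays and 0.77 on the 20 low-background arrays, in log2 units.

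**Figure D2:**
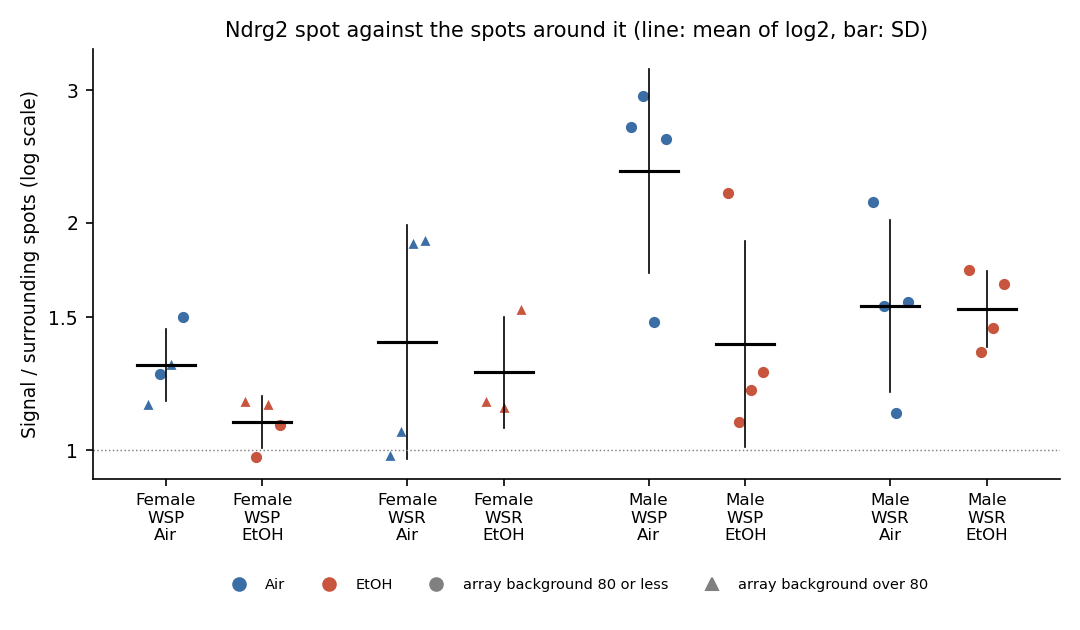
Signal of the Ndrg2 spot divided by the median Signal of the 48 spots around it, on a log axis, for 31 arrays by sex, line and treatment, with the mean and SD of the log2 ratio. Male WSP Air reaches 2.95 and male WSP EtOH is at 1.27 or less on 3 of its 4 arrays, while the female groups lie between 0.978 and 1.90.

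**Figure D3:**
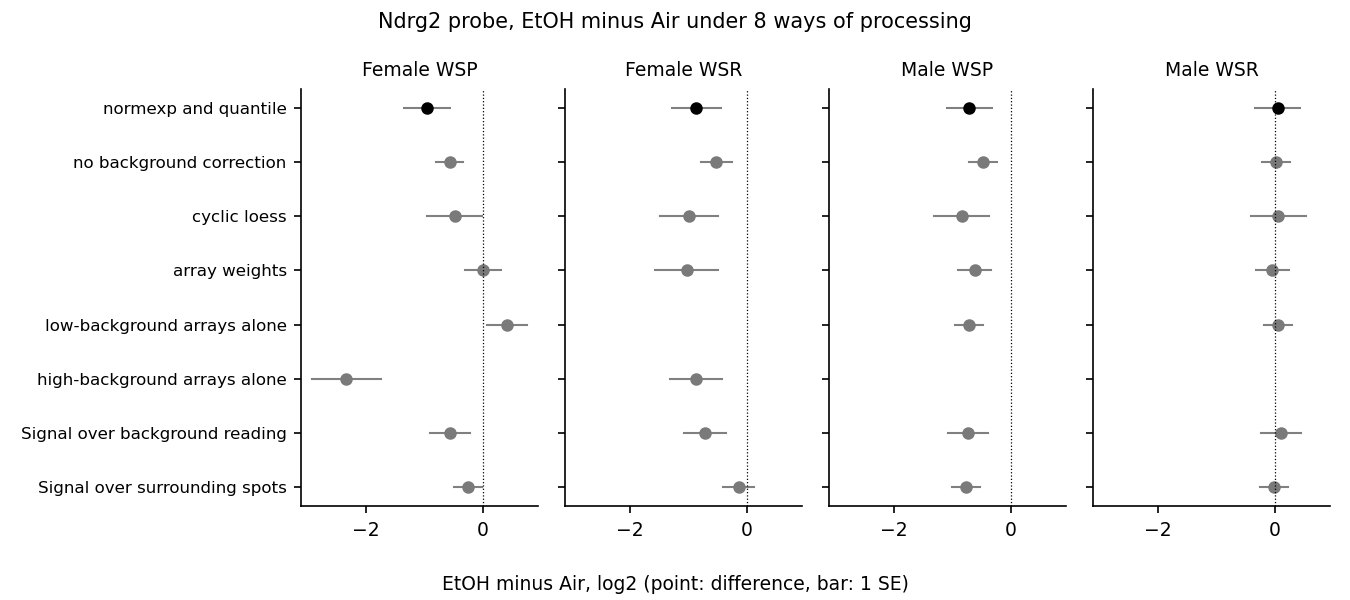
Log2 difference of Ndrg2 between EtOH and Air under 8 ways of processing, 1 panel per sex and line, with a bar of 1 SE to each side. Among these 8, the female WSP difference runs from -2.34 on high-background arrays to 0.42 on low-background arrays, and the male WSP difference keeps its sign wherever it could be fitted.

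The spots next to Ndrg2 differed widely in brightness. They were looked at after the data were seen, with a limit of 30 times background for a bright spot. The spot 1 column before it, an expressed sequence tag weakly similar to a LOMP protein, was brighter than the Ndrg2 spot on 31 of 31 arrays, with a median ratio of 28 (range 2.78 to 62.1) and a median Signal of 54.2 times the background reading. The spot 1 row after Ndrg2, another expressed sequence tag, had a median of 3.5 times its Signal and was brighter on 28 arrays. Over the array, 44 spots averaged over 30 times background. The 161 spots directly beside them, Ndrg2 among them, had a median Signal of 1.32 times their surroundings, and the 5150 remaining dimmer spots 0.976 times. Ndrg2 itself had a median of 1.35 times its surroundings over all arrays, close to that of spots beside a bright spot. Those spots had a median of 1.56 on low-background and 1.1 on high-background arrays. In male WSP Air Ndrg2 stood at 2.68, 2.95, 1.48 and 2.58, and the median of the other spots beside bright spots at 1.58, 1.79, 1.45 and 1.66. In every other group Ndrg2 lay above that median on some arrays and below it on others.

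The bright spot before Ndrg2 had smaller EtOH differences than Ndrg2 in 3 of the 4 combinations of sex and line: -0.14 in female WSP, 0.29 in female WSR, -0.11 in male WSP and, where Ndrg2 stood at 0.05, -0.15 in male WSR on the normalised log2 scale. On the ratio to surrounding spots its differences were -0.36, 0.87, -0.08 and -0.10 in the same order, larger in size than those of Ndrg2 in every combination but male WSP. Other spots that touch the bright spot resembled Ndrg2 on female arrays. The spot on its far side differed by -0.84 in female WSP and -0.75 in female WSR, the one above it by -0.63 and -1.03, and the one below it by -0.58 and -0.59. In male WSP the same 3 spots differed by -0.01, 0.36 and -0.02, against -0.71 for Ndrg2. The female resemblance was not limited to spots that touch the bright spot. The spot 1 column after Ndrg2 does not touch it. That spot differed by -0.86 in female WSP, -0.68 in female WSR and 0.08 in male WSP. For the other 160 spots beside bright spots, the median log2 ratio to their surroundings on each array averaged 0.47 in Air and 0.27 in EtOH in female WSP, 0.18 and 0.17 in female WSR, 0.69 and 0.57 in male WSP, and 0.66 and 0.72 in male WSR. Across the 31 arrays this median correlated with the Ndrg2 ratio at r = 0.51, at r = 0.51 over the 16 male arrays and at r = 0.09 over the 15 female arrays. How much of the Ndrg2 Signal comes from the bright neighbour was not tested.

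The difference in EtOH response between the sexes was not past the threshold for Ndrg2. Females minus males came to -0.58 on the normalised log2 scale (SE 0.40, 95% interval -1.40 to 0.23, limma adjusted p = 0.996), in a contrast where 0% of probes were called and 153 had an unadjusted p under 0.05. On the ratio to surrounding spots it had the opposite sign, 0.19 (SE 0.24, limma adjusted p = 0.998). The response of WSP minus that of WSR was -0.43 (SE 0.40, 95% interval -1.25 to 0.39, limma adjusted p = 1), again with 0% of probes called and 197 at an unadjusted p under 0.05. It was also -0.43 on the ratio to surrounding spots (SE 0.24, limma adjusted p = 0.926) and 0.22 with array weights (SE 0.37, limma adjusted p = 0.864). The intervals include no difference as well as differences larger than the mean EtOH value itself. Both contrasts are built from the EtOH differences that chose the probe, so their p-values and intervals are no independent test.

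The lines did not differ past the threshold in Ndrg2 level. In Air, WSP minus WSR was 0.58 in males (SE 0.39, 95% interval -0.23 to 1.38, limma adjusted p = 0.999), where 0% of probes were called and 83 had an unadjusted p under 0.05. In females it was -0.03 (SE 0.39, 95% interval -0.83 to 0.77, limma adjusted p = 0.978), where 2.76% of probes were called. Over both sexes it was 0.27 (SE 0.28, 95% interval -0.29 to 0.84, limma adjusted p = 0.801), with 0.232% of probes called. In EtOH the line difference was -0.12 in females (SE 0.42, limma adjusted p = 0.929), -0.19 in males (SE 0.39, limma adjusted p = 0.999) and -0.15 over both (SE 0.29, 95% interval -0.74 to 0.44, limma adjusted p = 0.923), with 0% of probes called in each and 484, 161 and 319 at an unadjusted p under 0.05. In males the mean of WSP was thus above WSR in Air and below it in EtOH, with neither difference past the threshold.

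Females and males in Air had nearly equal normalised levels of Ndrg2, with females lower by 0.06 (SE 0.28, 95% interval -0.63 to 0.51, limma adjusted p = 0.926). In this contrast 568 of 3872 probes (14.7%) were called, and the background reading differs between the same arrays. A fit with a term for background class gave a difference of 0.02 (SE 0.41, limma adjusted p = 0.988) and called 0 probes, with 332 at an unadjusted p under 0.05. Background class varied within a group only in female WSP, where it matched the pool. The term therefore rests on the female WSP arrays, and in it background and pool cannot be told apart. On the ratio to surrounding spots, Ndrg2 was lower in females by 0.51 (SE 0.17, limma adjusted p = 0.0341), in a contrast where 19.2% of probes were called and the median of all probes was -0.05. The spread of this ratio over probes also differed, with a median interquartile range of 0.32 on female and 0.78 on male arrays. How much of the difference in Ndrg2 comes from that spread was not tested. Among low-background arrays of WSP in Air alone, the 2 female arrays had ratios of 1.26 and 1.50 and the 4 male arrays 1.48 to 2.95. Sex and array background cannot be told apart in WSR, where all female arrays were high-background.

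The replicate lines of a direction did not differ past the threshold. Selection replicate 2 minus 1 was -0.19 in WSP (SE 0.29, 95% interval -0.80 to 0.43, limma adjusted p = 0.999), with 0% of probes called and 91 at an unadjusted p under 0.05, and 0.29 in WSR (SE 0.31, 95% interval -0.36 to 0.93, limma adjusted p = 0.86), with 0.0775% called. As a check without a model, 12 two-sided exact permutation tests compared lines and sexes on the ratio to background and on the ratio to surrounding spots. The smallest p was 0.0571, for females minus males in WSP Air on the second scale, where 4 arrays against 4 can reach 0.0286. Its value adjusted over the 12 tests was 0.41, the lowest reached, which other tests among the 12 shared.

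By likeness of pattern over the 31 arrays, 373 probes with a title naming 1 gene, passing the filter on dim probes and above background on at least 50% of arrays, were ranked by Pearson's r with Ndrg2 on the normalised scale. The median r was 0.10. The 5 highest were G protein-regulated inducer of neurite outgrowth 1 (r = 0.71, Spearman's rho 0.54), carboxypeptidase X2 (0.69, rho 0.62), gene trap locus 2 (0.66, rho 0.53), tubulointerstitial nephritis antigen (0.59, rho 0.46) and zinc finger protein 62 (0.59, rho 0.37). Of these, G protein-regulated inducer of neurite outgrowth 1 acts in neurite growth downstream of G proteins, and gene trap locus 2 is the imprinted non-coding RNA Meg3. The 3 lowest were eyes absent 1 (-0.45, rho -0.41), a developmental transcription cofactor, zinc finger protein 57 (-0.45, rho -0.31), which keeps imprints methylated, and ubiquitin-like 3 (-0.43, rho -0.37). Over the 16 male arrays alone the 5 highest had r of 0.35, 0.72, 0.20, 0.21 and 0.32 in the order given, so carboxypeptidase X2 was the one that kept its value.

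Likeness followed the place on the array. Of the 5 highest probes, 2 lay up to 3 positions from the Ndrg2 spot, where only 5 of the 373 candidates lie, and 4 lay in its grid. Over all tested probes, the median r with Ndrg2 was 0.61 at a distance of 1 position (8 probes), 0.54 at 2 (16 probes), 0.42 at 3 (24 probes), 0.37 at 4 to 6 (51 probes), 0.33 at 7 to 12 (30 probes) and 0.01 in other grids (3661 probes). The gradient was steep on female arrays, from 0.75 next to Ndrg2 to -0.07 in other grids, and shallow on male arrays, from 0.20 to 0.01. On the ratio to surrounding spots the median r was 0.36 at 1 position, 0.10 at 2, 0.02 at 3 and -0.01 at 4 to 6. It was 0.14 at 7 to 12 positions and 0.11 in other grids. These points share arrays and, in a grid, the same region of the array surface.

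**Figure D4:**
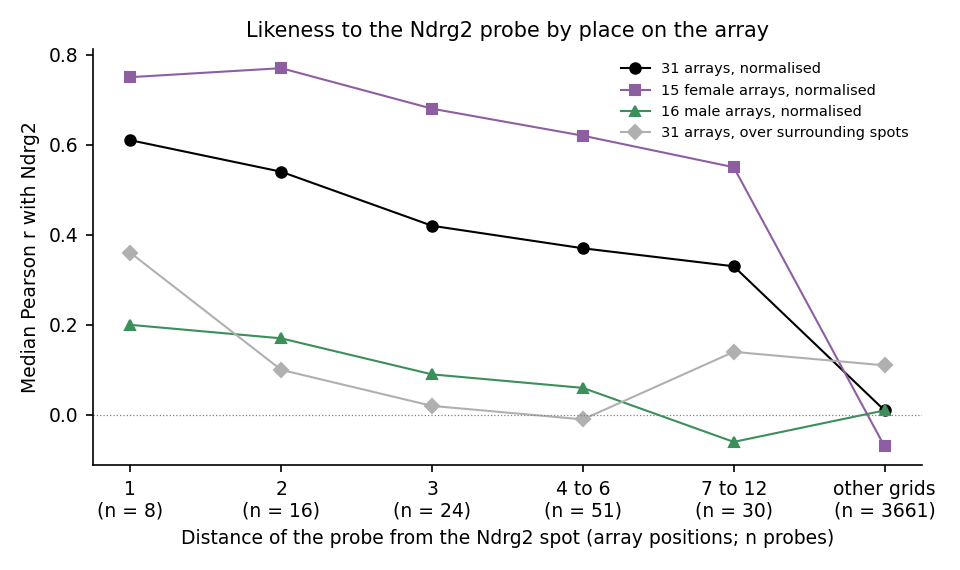
Median Pearson r between the Ndrg2 probe and other tested probes, by their distance from the Ndrg2 spot in array positions, over 31 arrays, 15 female arrays and 16 male arrays on the normalised scale and over 31 arrays on the ratio to surrounding spots. The normalised curves start at 0.61, 0.75 and 0.20 for the 8 adjacent probes and end near 0 in other grids.

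Carboxypeptidase X2, a member of the metallocarboxypeptidase family thought to lack catalytic activity, second by r on the normalised scale, was the closest to Ndrg2 on the ratio to surrounding spots. Its r there was 0.83 over 31 arrays (rho 0.78), 0.87 over 16 male arrays, 0.58 over 15 female arrays, 0.71 within groups and 0.74 without the 2 arrays farthest from the median. The next candidate reached 0.56. Its spot lay 10 positions from Ndrg2 in the same grid and was above background on 19 of 31 arrays, with a median of 1.08 times the reading. In male WSP its ratio to surrounding spots was 1.64, 2.14, 1.18 and 1.66 in Air and 1.50, 0.963, 1.26 and 0.991 in EtOH, in the order of arrays used above. In male WSR it was 1.28, 1.08, 1.03 and 1.15 in Air and 1.19, 1.13, 1.41 and 1.12 in EtOH. The arrays on which Ndrg2 was brightest were thus those on which this dim spot was brightest too. Its log2 differences between EtOH and Air on that scale were -0.33 in female WSP, -0.03 in female WSR, -0.48 in male WSP and 0.09 in male WSR. The brightest spot next to it had a median of 23.4 times its Signal, but the spot is not among those beside a spot over 30 times background.

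**Figure D5:**
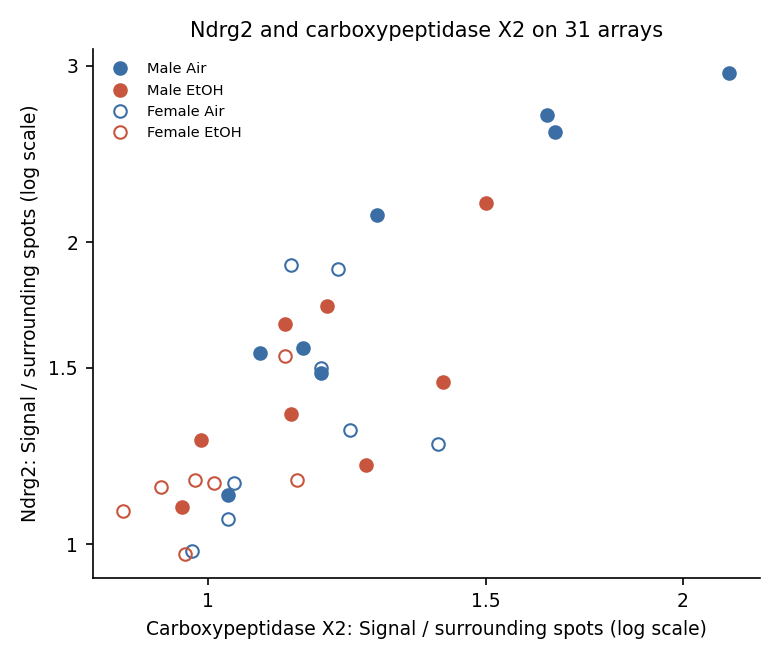
Ratio to surrounding spots of carboxypeptidase X2 (horizontal, log axis) and of Ndrg2 (vertical, log axis) on 31 arrays, with males as filled and females as open circles, Air in blue and EtOH in red. The points follow 1 band (r = 0.83), and its upper end is held by male WSP Air arrays, at 2.14 and 2.95 for the highest.

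Few genes of the pathways and cell types around Ndrg2 had a probe with a title of their own. The lists were chosen with earlier results of these data known, and the p-values were adjusted over all 3872 probes. Of 16 astrocyte markers, 4 had a probe and 3 passed the filter on dim probes. In the mean EtOH contrast 0 of these 3 were called, their median was 0.01 on the normalised log2 scale, and the median of all probes was 0.01. Aldoc, the aldolase of astrocytes, had a difference of 0.29 (SE 0.20, limma adjusted p = 0.872). Glul stood at -0.07 (SE 0.16, limma adjusted p = 0.961) and Dio2, which activates thyroid hormone, at 0.01 (SE 0.18, limma adjusted p = 0.993). The r of these 3 with Ndrg2 over 31 arrays was -0.13, 0.12 and 0.10. Clu, the secreted chaperone clusterin, did not pass the filter and was above background on 6 arrays.

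Among glucocorticoid-responsive genes, 3 of 14 had a probe and 2 were tested, with a median of -0.31 and 0 called. The lower of the 2 was Tsc22d3, the glucocorticoid-induced leucine zipper, at -0.54 (SE 0.20, limma adjusted p = 0.855), and its r with Ndrg2 was 0.52 over 31 arrays and 0.42 over the male arrays. On the ratio to surrounding spots the Tsc22d3 difference was -0.11. The other was Glul, and Dusp1, a phosphatase of MAP kinases, was above background on 6 arrays and not tested. Of 12 hypoxia-responsive genes 1 had a probe, Aldoa, a glycolytic enzyme, at -0.35 (SE 0.20, limma adjusted p = 0.855). None of the 13 genes of the Myc network and none of the 7 endothelial markers had a probe so titled. Of the Wnt pathway, whose beta-catenin signalling Ndrg2 is known to affect, Wnt4, a ligand, stood at 0.28 (SE 0.23, limma adjusted p = 0.882) and Fzd9, a receptor, at -0.13 (SE 0.19, limma adjusted p = 0.921).

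Markers of other cells did not pass the threshold in the mean EtOH contrast either. Syn1, 1 of 12 neuron markers with a probe, was at 0.27 (SE 0.21, limma adjusted p = 0.882). Of the 9 microglia markers Cd14, a receptor for bacterial products, was at -0.03 and Cd74, a chaperone of antigen presentation, at 0.15. Of the 3 choroid plexus markers Ttr, the carrier of thyroid hormone, was at 0.06 and Enpp2, which makes lysophosphatidic acid, at 0.005. In females against males in Air, where 14.7% of all probes were called, Dio2 was lower in females by 1.14 (SE 0.25, limma adjusted p = 0.00317) and Enpp2 by 0.46 (SE 0.17, limma adjusted p = 0.0422). With cyclic loess these differences were -0.37 (limma adjusted p = 0.288) and -0.33 (limma adjusted p = 0.204), and on the ratio to surrounding spots that of Dio2 was -1.03 (limma adjusted p = 0.0541) and that of Enpp2 -1.61 (limma adjusted p = 0.00241). With median scaling Dio2 was at -1.68 (limma adjusted p = 0.0047) and Enpp2 at -1.95 (limma adjusted p = 0.000705). Without background correction they were at -0.82 (limma adjusted p = 0.00168) and -0.41 (limma adjusted p = 0.0167). On the normalised scale Aldoc was higher in females by 0.45 (limma adjusted p = 0.28), and Clu, which was not tested, by 0.15. Glul was lower by 0.37 (limma adjusted p = 0.249) and Ttr by 0.15 (limma adjusted p = 0.712). The part that these cell types have in the Ndrg2 values was not tested.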

How the data were processed

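The deposited scanner files, per the file headers, hold 1 intensity (Signal) for each of 5355 spots and 1 background intensity per array. The quantification software is not given in the sources used here. The value table deposited by the authors holds a score: it equals the Z-score of log2 Signal within an array, times 2 plus 8, to within 6.58e-09, and is blank where Signal is at or below background (99.98% of spots). Its medians per array ran from 7.35 to 11.2, and it served as an alternative.

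After normexp (limma 3.58.1, R 4.3.3; offset 50 where an array's median Signal is at least 500, otherwise 0.1 of that median), 192 control spots were dropped, 31 arrays were quantile normalised, and the 3872 probes with a mean log2 above the 25th percentile were tested with lmFit and eBayes, 1 mean per group, 23 residual degrees of freedom, with Benjamini-Hochberg adjustment. The contrasts between selection replicates came from a separate fit with 1 mean per sex, line, selection replicate and treatment, which left fewer residual degrees of freedom. Calls are adjusted p under 0.05. The number of arrays limits the precision. The limma step was tested on simulated data.

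The probe, the lists and the tests were chosen with earlier results of these data known. Named were the probe of the rule, up to 3 measured genes of each list by p in the mean EtOH contrast, and the 5 most and 3 least similar probes; some listed genes are not reported here. The arrays of a group are pools of separate animals. Selection replicates pair Air and EtOH arrays, since the labels make them the same bred line; the differences between replicate lines correlated at -0.08 to 0.03 across treatments, over 3872 probes. The header of 1 array, female WSP EtOH 1-2, names another pool than its title, and the title was used. Alternatives changed the background correction, normalisation, filter, arrays and blocks; the ratios to background and to surrounding spots and the filled score were added after the data were seen.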

Additional observations from a re-analysis of the deposited data

Results flagged for a closer look

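In the male WSR EtOH group, array 2-1 stood apart from the other 3 on the ratio of Ndrg2 Signal to the background reading. Its log2 ratio was 0.51, and the other arrays were close together, with the highest of the group at 0.95. Its gap to the nearest array, as a share of the group's range, was past Dixon's 95% critical value for 4 samples. Chance marks about 1 in 20 groups in this way, and the array did not stand apart on the normalised scale or on the ratio to surrounding spots.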

How the results depend on the processing

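Most Ndrg2 values kept their direction and their side of the threshold; the exceptions follow, in log2 units, and their cause was not tested. The mean EtOH difference, -0.63, was -2.32 with the background reading subtracted and -0.29 on the ratio to surrounding spots. It was -1.61 on high-background arrays, where it averages female WSP and female WSR alone. On low-background arrays it was -0.08, averaged without female WSR. Female WSP was -4.02 with subtraction and 0.42 on low-background arrays. Male WSR was -0.04 with array weights and -0.01 on the ratio to surrounding spots. The response of females minus males was 0.19 on that ratio, and of WSP minus WSR 0.22 with array weights. Females minus males in Air was 0.27 with cyclic loess, 0.41 and 0.26 with the deposited score, blank or filled, 0.02 with background class as a term and -0.51, past the threshold, on the ratio to surrounding spots. WSP minus WSR in Air was -0.08 over both sexes with cyclic loess and, in females, 0.002 without background correction, 0.96 with subtraction, 0.61 on high-background arrays and 0.30 on the ratio to background. In EtOH it was 0.22 (subtraction), 0.59 (array weights) and 0.46 (ratio to background) in females, and 0.27 and 0.12 over both sexes under the last 2. Selection replicate 2 minus 1 in WSP was 0.04 with subtraction. The paired analysis, with a replicate block on selection replicate, gave -0.62 for the mean EtOH difference and changed no call; a replicate block that also held the pool gave -0.19 for the lines in Air over both sexes. Leaving out each array in turn gave -0.15 to 0.23 for EtOH in male WSR, -0.34 to 0.18 (Air) and -0.47 to 0.21 (EtOH) for the lines in females, -0.33 to 0.01 (EtOH) and 0.12 (without female WSP Air 1-1) to 0.38 (Air, without female WSP Air 2-2) for the lines over both sexes, -0.61 to -0.27 for the response of WSP minus WSR (without female WSR EtOH 1-2 and 2-2), -0.21 to 0.05 for females minus males in Air and -0.40 to 0.03 for selection replicates in WSP. Of all probes, 568 were called between the sexes in Air, 104 with cyclic loess, 0 with background class as a term (332 at an unadjusted p under 0.05) and 885 on the ratio to background, where the median of all probes was -0.25; median scaling moved that median to -0.17. The 107 calls between female lines in Air ran from 0 on high-background arrays, among other settings (132 at an unadjusted p under 0.05), to 775 with the deposited score. With that score, left blank at or below background, 1835 probes were tested in this contrast in place of 3872. The 6 EtOH calls in female WSR ran from 0, as with cyclic loess (528 at an unadjusted p under 0.05), to 90. Ndrg2 was above background on 26 of 31 arrays, which limits what its female values can show.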
